A study of Mus musculus with 5 samples.

Results

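Spleen cells taken after an infusion of live allogeneic cells were compared with spleen cells taken after an infusion of saline, across all cell classes and above all in lymphocytes and macrophages. The cells were the barcodes of these 2 libraries that held 1000 or more unique molecular identifiers (UMIs, each a captured mRNA molecule) from 500 or more genes, with no more than 10% of the UMIs mitochondrial. They numbered 4088 of the 16271 cells kept in the 5 libraries of the series, 2902 from the saline library and 1186 from the live allogeneic library. All hosts were C57/BL6 mice, and every infusion was intravenous, 48 h before the spleens were taken. The control mice received saline, and the other mice received live splenic cells of Balbc mice, a strain whose MHC molecules differ from those of the host. The other 3 libraries followed live B6 (isogeneic), apoptotic Balbc and apoptotic B6 cells, and they are set beside the comparison below with the same saline control, so their ratios are not independent of it. Collagenase D and DNAse I freed the spleen cells, which were enriched by magnets for CD45+ cells and, separately, for dendritic cells (DCs), and the enriched fractions were pooled again. The number of mice behind each library, and their age, are not given in the sources used here. No label marks infused cells, so host cells and any remaining Balbc cells were not told apart.

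Interferons are secreted proteins that bind cell surface receptors and act through JAK kinases and STAT transcription factors. Type I interferons, which nearly every nucleated cell can sense, raise antiviral genes that restrict viruses and sense foreign nucleic acids. Interferon-gamma, made chiefly by natural killer (NK) and T cells, has its own receptor and raises guanylate-binding proteins, immunity-related GTPases, the chemokines Cxcl9 and Cxcl10 and antigen presentation, and the gene sets of both overlap. In the spleen, B cells fill the follicles and the marginal zone, T cells surround the arterioles, and red pulp macrophages take up aged red cells and recycle their iron.

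The saline library held 18125660 UMIs and the live allogeneic library 12742889, with medians of 3426 and 4984.5 UMIs per kept cell. The pair shared 0 kept barcodes, and other pairs of libraries shared up to 8. With 1 library on each side there was no replicate and no test, and all 95% intervals below cover counting error only. Levels are UMIs summed over the cells of a class in a library, scaled to 1000000 UMIs per class and library (CPM), and a fold is the live allogeneic CPM over the saline CPM. A log2 ratio was taken after adding 10 CPM to each side, which understates the ratio of low genes, and a gene was measured in a class when both sums held at least 20 UMIs together. Summed levels cannot tell apart more cells with an mRNA and more mRNA per cell. The share of cells with a UMI is given beside several levels, but it also rises with depth and with level. Classes are named "-like" from their marker genes, and 10 classes had at least 30 cells and 50000 UMIs in each library.

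B-like cells made up 29.5% (27.8% to 31.2%) of the saline and 40.6% (37.7% to 43.4%) of the live allogeneic cells. NK-like cells made up 4.89% (4.14% to 5.74%) and 2.53% (1.71% to 3.59%). A cluster with 15 of 16 B cell markers, left unnamed by the rule on leading genes, is outside this share; with it B-like cells made up 36.0% (34.3% to 37.8%) and 43.8% (41.0% to 46.7%). The intervals did not overlap for either class, and the directions were the same when at most 5% mitochondrial UMIs were allowed, with 14.8% and 28.6% for B-like and 6.90% and 3.65% for NK-like cells. CD4 T-like cells made up 5.0% (4.23% to 5.85%) and 4.05% (3.0% to 5.33%), CD8 T-like cells 5.0% and 5.65% (4.40% to 7.12%), and macrophage-like cells 2.17% (1.67% to 2.77%) and 3.12% (2.21% to 4.27%), all with overlapping intervals. Neutrophil-like cells made up 0.448% (0.239% to 0.765%) and 1.52% (0.902% to 2.39%), and mature DC-like cells 4.62% (3.88% to 5.45%) and 2.02% (1.30% to 3.0%). Of the conventional DC classes, cDC2-like cells made up 15.7% (14.4% to 17.1%) and 11.9% (10.1% to 13.9%). cDC1-like cells made up 7.99% (7.03% to 9.04%) and 5.14% (3.96% to 6.56%). The intervals did not overlap for cDC2-like or cDC1-like cells. With an unnamed cluster that held 12 of 15 cDC1 markers joined, cDC1-like cells made up 9.82% and 7.5%, with overlapping intervals. Erythroid-like cells made up 2.89% (2.32% to 3.57%) and 4.38% (3.29% to 5.71%). In the other 3 libraries, after live B6, apoptotic Balbc and apoptotic B6 cells, B-like cells made up 33.4%, 28.3% and 47.5%. NK-like cells made up 3.5%, 3.87% and 2.62% there. The B-like share was thus highest after apoptotic B6 cells, and the NK-like share after them lay close to the live allogeneic one. The separate DC enrichment and the re-pooling partly set all these shares, and their part in the differences was not tested.

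**Figure D1:**
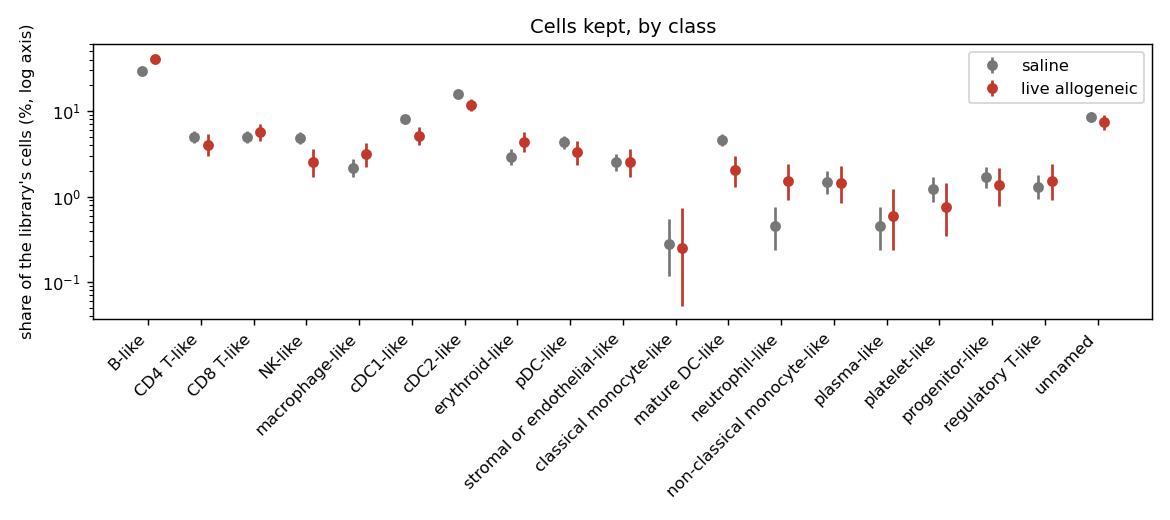
Share of the kept cells in each class, as a percentage on a log axis, in the saline (grey) and live allogeneic (red) libraries, with exact 95% binomial intervals that cover counting error only. B-like cells stand at 29.5% and 40.6%, and the NK-like, mature DC-like, cDC1-like and cDC2-like shares are lower in the live allogeneic library.

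Interferon-response genes were higher in the live allogeneic library in B-like, CD4 T-like and CD8 T-like cells, less evenly in macrophage-like cells and much less in NK-like cells. In B-like cells, 47 of 61 measured type I genes were at least 1.5-fold higher and 0 lower, where 6% of all measured B-like genes were that much higher and 19.8% lower. The median log2 ratio of the list was 0.97, beside -0.14 for all measured genes. CD4 T-like cells had 34 of 46 type I genes higher and 0 lower (all genes 11.1% and 20.7%), with a list median of 1.14 beside -0.12. CD8 T-like cells had 36 of 51 higher and 0 lower (all genes 8.93% and 20.7%), with a list median of 0.77 beside -0.13. In macrophage-like cells 24 of 48 were higher and 1 lower, against 19.5% and 21.7% of all genes, with a list median of 0.46 beside -0.02, and of 0.21 without the cells that held a B cell gene UMI. NK-like cells had 6 of 30 higher and 2 lower (all genes 9.42% and 23%), and the list median of 0.11 stood beside -0.11. These medians were not tested against each other.

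In the other 3 infusions the type I medians stayed near or below 0 in the same classes. For B-like cells they were 0.00 after live B6, -0.21 after apoptotic Balbc and -0.09 after apoptotic B6 cells. They were 0.03, -0.04 and -0.03 in CD4 T-like, -0.14, -0.36 and -0.20 in CD8 T-like and 0.03, -0.13 and -0.04 in macrophage-like cells, in the same order. The live allogeneic library had the highest median of the 4 infusions in each of these 4 classes, all measured against the same saline library.

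The interferon-gamma list gave medians of 1.38 in B-like (22 of 26 higher, 0 lower), 1.34 in CD4 T-like (15 of 15 higher) and 0.90 in CD8 T-like cells (17 of 20 higher, 0 lower). Macrophage-like cells had a median of 0.65 with 8 of 15 higher and 3 lower, and NK-like cells a median of -0.15 with 0 of 11 higher and 4 lower. The shares of all genes given beside the type I list apply here too. A gene low after saline could be measured through the live allogeneic library alone, such as Iigp1 and Tgtp1 in B-like cells, with 0 and 43 and 0 and 38 UMIs. Many genes of the interferon-gamma list were not measured, so 15 of 15 does not cover the whole list. MHC class I presentation genes, which cut, transport and display cytosolic peptides to CD8 T cells, had medians of 0.77 in B-like (14 of 23 higher, 0 lower), 0.35 in CD4 T-like (8 of 21, 0 lower), 0.45 in CD8 T-like (7 of 23, 2 lower), 0.27 in NK-like (7 of 20, 0 lower) and 0.49 in macrophage-like cells (8 of 18, 0 lower). A joint list of interferon receptors, JAKs, STATs, Irf9 and cytokines such as Ifng, Il15 and Il18 differed far less. Its medians were -0.09 in B-like (2 of 14 higher, 1 lower), -0.21 in CD4 T-like (3 of 12, 1 lower) and 0.08 in CD8 T-like cells (2 of 12, 0 lower).

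**Figure D2:**
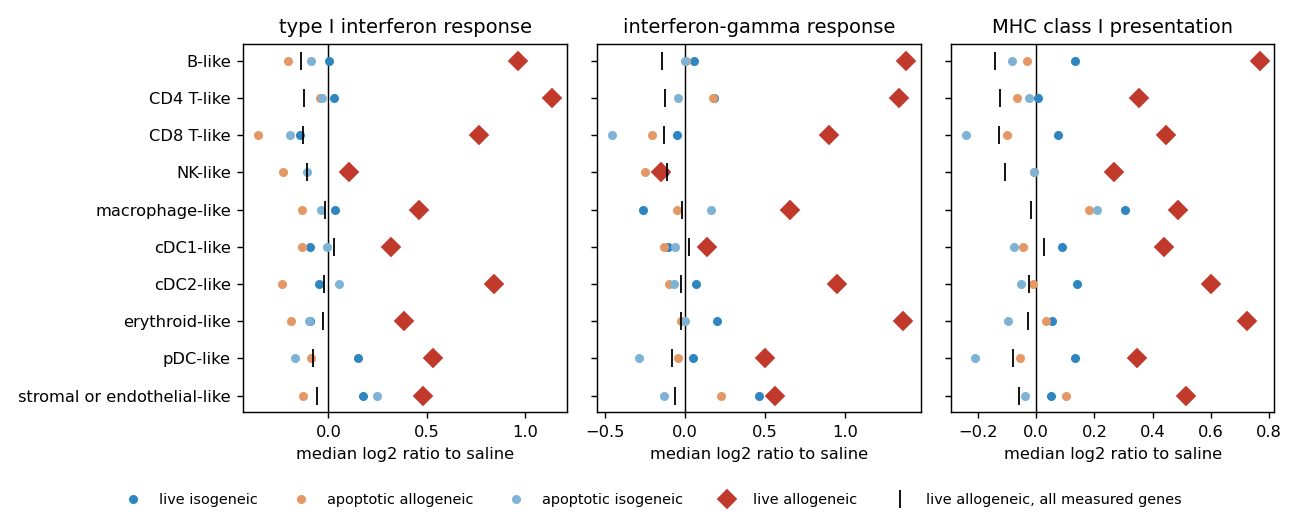
Median log2 ratio to saline of 3 gene lists (panels) in 10 classes (rows), for the live allogeneic library (red diamonds) and the other 3 infusions (circles); black ticks give the median of all measured genes in the live allogeneic comparison. The diamonds of B-like cells stand at 0.97 for the type I, 1.38 for the interferon-gamma and 0.77 for the MHC class I list, and those of NK-like cells at 0.11, -0.15 and 0.27.

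A count per cell at 1 fixed depth had the same direction in all 5 classes. Each cell was thinned to 1000 UMIs, and the UMIs of the type I list were counted. The mean per cell went from 7.73 in saline to 12.5 in live allogeneic B-like cells, from 8.24 to 14.5 in CD4 T-like, from 8.69 to 15.3 in CD8 T-like, from 8.49 to 13.8 in macrophage-like and from 6.12 to 7.73 in NK-like cells. The share of cells with at least 3 such UMIs was already high after saline, with 93.2% of B-like and 87.3% of NK-like cells, and 96.9% and 96.7% after live allogeneic cells. These shares are near their ceiling and do not show how many cells responded. Free RNA, in barcodes with fewer than 100 UMIs, held 5037 and 7817 CPM of the same list, and its part in these counts was not tested.

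B-like cells numbered 855 after saline and 481 after live allogeneic cells, the deepest of the lymphocyte comparisons. Of 9131 measured genes, 214 were at least 2-fold higher (2.34%) and 469 at least 2-fold lower (5.14%), 7.48% in all. Genes with at least 100 UMIs had a median log2 ratio of -0.15, so small negative values are shared by most genes of this class. B cell markers themselves had a median of -0.38, with 0 of 16 higher and 2 lower.

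Isg15, a ubiquitin-like protein joined to other proteins during an interferon response (ENSMUSG00000035692, GRCm38 chr4:156199424-156200818, minus strand), stood at 29.9 CPM after saline and 164 CPM after live allogeneic cells. That is 5.47-fold (4.28 to 7.07), and the share of B-like cells with a UMI was 6.08% and 32.0%. Zbp1, a sensor of Z-form nucleic acids (chr2:173206612-173218923, minus strand), stood at 28.0 and 187 CPM, 6.67-fold (5.19 to 8.68), with a UMI in 7.49% and 46.6% of cells. Both genes were thus seen in a larger share of cells, but median UMIs per B-like cell were 2378 and 3935. These shares rise with depth and with level, so they cannot tell apart more cells and more mRNA per cell. Ifit3 and Ifit2, members of a family that binds RNA during antiviral responses, stood at 18.3 and 108 CPM (5.94-fold, 4.34 to 8.29) and at 7.38 and 57.1 CPM (7.74-fold, 4.78 to 13.2). Ifi27l2a, a small interferon-induced membrane protein (chr12:103442167-103443680, minus strand), was already abundant after saline at 529 CPM and stood at 1564 CPM, 2.96-fold (2.78 to 3.15). Bst2, a tether of budding virus particles, stood at 30.7 and 142 CPM, 4.62-fold.

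Among the genes that interferon-gamma raises, Ifi47, an immunity-related GTPase, stood at 43.5 and 203 CPM, 4.67-fold (3.79 to 5.78). The related Tgtp2 stood at 4.27 and 52.6 CPM, 12.3-fold (6.66 to 25.3); it shares reads with the near-identical Tgtp1, so the split between them is uncertain. Gbp6, a guanylate-binding protein, stood at 2.33 and 36.6 CPM, 15.7-fold. Iigp1, another GTPase of this group, had 0 UMIs after saline and 43 after live allogeneic cells, at least 15.2-fold higher against a floor of 3 counts in the saline sum. The 10 highest genes of the class under the naming rule were Hspa1b, Zbp1, Hspa1a, Tgtp2, Isg15, Ifit3, Ifi47, Ifit2, Socs1 and Gbp6. Hspa1a and Hspa1b, near-identical genes of the inducible HSP70 chaperone that share reads, are the only ones of these 10 that are not known interferon-response genes or their feedback regulators. Hspa1b stood at 2.72 and 62.5 CPM, 23-fold (10.9 to 58.1). In the list of heat and dissociation stress genes that holds them, 4 of 20 were higher and 0 lower in B-like, 8 of 19 higher and 1 lower in CD4 T-like and 8 of 20 higher and 1 lower in CD8 T-like cells; a part of tissue handling in these values was not tested.

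The signalling chain itself was unequal. Stat2, a transcription factor of the type I response, stood at 43.5 and 96.2 CPM, 2.21-fold, while Irf9, which binds DNA together with it, was at 1.22-fold. Irf7, an amplifier of type I interferon production, stood at 17.1 and 75.2 CPM, 4.40-fold. The type I receptor subunit Ifnar1 was lower, at 53.6 and 30.4 CPM (0.57-fold, 0.42 to 0.76), and the kinase Jak1 was at 0.70-fold. Socs1, which blocks JAK kinases, stood at 1.94 and 35.3 CPM, 18.2-fold (7.5 to 57.5), from 5 UMIs after saline. Transcripts of Stat2, Irf7 and the brake were thus higher, and those of the receptor subunit and the kinase lower, than after saline.

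For antigen presentation, B2m, the light chain of MHC class I, stood at 698 and 1415 CPM, 2.03-fold, and the heavy chain H2-D1 at 549 and 942 CPM, 1.72-fold. The heavy chain H2-K1 was at 1.26-fold. Psmb9, a subunit of the immunoproteasome that trims proteins into class I peptides, stood at 108 and 303 CPM, 2.80-fold, its partner Psmb8 was at 1.53-fold, and the peptide transporter Tap1 at 1.87-fold. MHC class II genes did not share this, with 0 of 14 higher, 1 lower and a median of -0.10.

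**Figure D3:**
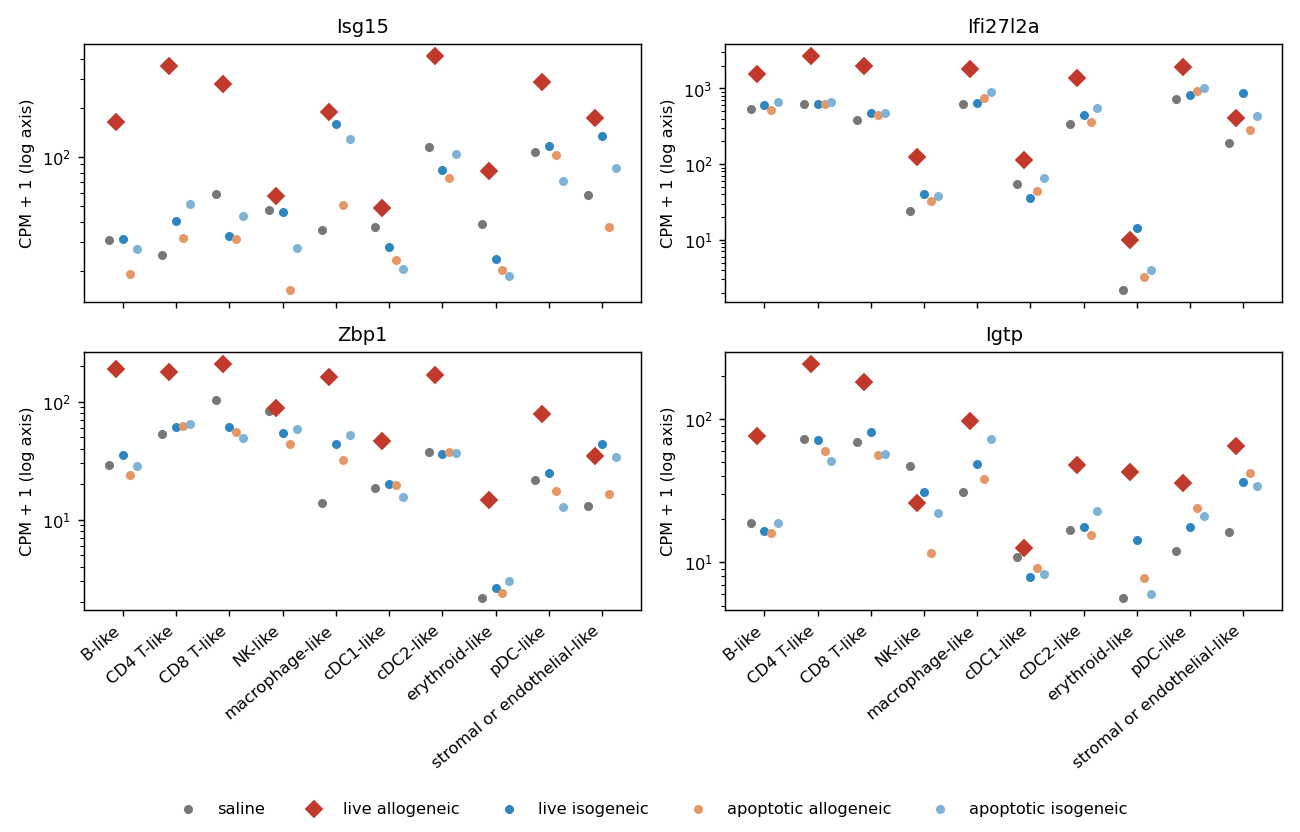
Level of Isg15, Ifi27l2a, Zbp1 and Igtp (CPM + 1, log axis) in each class (horizontal axis) and each of the 5 libraries (colours), with live allogeneic as red diamonds; each point is the sum over 1 library and has no replicate error. In B-like cells Isg15 stands at 29.9 CPM after saline and 164 after live allogeneic cells, and in NK-like cells the Igtp points stand at 46.4 and 25 CPM.

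The promoters of 4 type I genes are shown because these had the highest median log2 ratios over the lymphocyte and macrophage classes among the type I genes with a promoter entry. Each is the stretch of 250 bases before the RefSeq transcription start (GRCm38.p6), 5′ to 3′ on the gene's strand. Capitals mark every match, on either strand, to GAAA followed after any 2 bases by a second GAAA (TTTC and TTTC when read on the other strand), the core spacing of an interferon-stimulated response element, with overlapping matches run together.
Isg15, chr4:156200819-156201068, minus strand: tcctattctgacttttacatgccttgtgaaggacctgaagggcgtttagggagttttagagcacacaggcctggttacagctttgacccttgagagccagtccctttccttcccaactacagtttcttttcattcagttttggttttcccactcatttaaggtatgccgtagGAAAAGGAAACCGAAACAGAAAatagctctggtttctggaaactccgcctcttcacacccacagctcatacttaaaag
Ifit3, chr19:34583279-34583528, plus strand: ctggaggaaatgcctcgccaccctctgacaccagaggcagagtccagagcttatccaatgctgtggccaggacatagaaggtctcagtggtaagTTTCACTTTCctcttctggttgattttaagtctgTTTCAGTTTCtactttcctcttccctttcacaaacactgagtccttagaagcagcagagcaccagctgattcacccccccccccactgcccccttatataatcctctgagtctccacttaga
Bst2, chr8:71537473-71537722, minus strand: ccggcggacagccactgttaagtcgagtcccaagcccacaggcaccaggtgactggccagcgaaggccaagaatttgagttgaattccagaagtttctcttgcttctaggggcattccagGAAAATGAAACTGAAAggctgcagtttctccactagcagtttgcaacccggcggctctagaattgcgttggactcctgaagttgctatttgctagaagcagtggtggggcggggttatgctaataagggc
Oasl2, chr5:114896684-114896933, plus strand: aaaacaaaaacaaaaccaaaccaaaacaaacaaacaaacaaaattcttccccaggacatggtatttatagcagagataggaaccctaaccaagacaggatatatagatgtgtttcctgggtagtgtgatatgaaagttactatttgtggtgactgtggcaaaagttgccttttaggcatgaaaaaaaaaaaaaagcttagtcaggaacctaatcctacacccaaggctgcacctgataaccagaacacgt
Isg15 had 3 overlapping matches, beginning 78, 72 and 66 bases before the start. Ifit3 had 2 in the reverse form, beginning 156 and 122 bases before the start, Bst2 had 2 overlapping ones, and Oasl2 had 0 in this window. The letters were found in 2.98% of all 32851 RefSeq windows of this length and in 34.8% of the 66 windows of type I list genes. Counted by gene, that is 21 of 52 list genes with a window, or 40.4%, and 3.46% of 27025 genes. A match says only that these letters are present.

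The B-like class joined 4 larger clusters and 1 of 16 and 11 cells that was too small to compare, and the libraries filled them differently: the cluster led by Cacna1i, Fcer2a and Cd55 held 43.3% of the saline B-like cells, and the cluster led by Egr3, Bcar3 and Cr2 held 41.4% of the live allogeneic ones. Within each of the 4, type I genes were higher. In the Fcer2a and Cd55 cluster (370 and 134 cells) the median was 0.83, from 33 of 50 higher and 2 lower. The Fcer2a and Fcmr cluster (140 and 74 cells) had 41 of 43 higher and a median of 1.60. In the Egr3 cluster (175 and 199 cells) 41 of 55 were higher, with a median of 1.10, and in the S1pr3, Fcrl5 and Cr2 cluster (154 and 63 cells) 34 of 49, with a median of 0.77. Zbp1 stood at 30.3 and 131 CPM in the first, 14.9 and 289 in the second, 33.5 and 215 in the Egr3 and 23.6 and 165 in the S1pr3 cluster. All 4 clusters thus had type I medians above 0, with the highest in the Fcer2a and Fcmr cluster; whether they differ was not tested. A cluster led by Cplx2 and Vpreb3 held 15 of the 16 B cell markers but was left unnamed, because its 10 leading genes held the neutrophil marker Wfdc21 and none of the B cell markers. That cluster had 191 and 39 cells, and its type I median was 0.58, from 22 of 40 genes higher and 0 lower.

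Genes of B cell activation lay on both sides. As a list they had a median of -0.06, from 7 of 30 higher and 3 lower, beside 6% and 19.8% of all B-like genes. Cd69, an early activation receptor, was at 1.10-fold and the costimulatory ligand Cd86 at 1.40-fold. The growth regulator Myc stood at 22.9 and 46.4 CPM, 2.03-fold, and the cytokine Mif at 247 and 502 CPM, 2.03-fold. Inside the Egr3 cluster, Egr3, an early response factor downstream of the antigen receptor, was lower, at 309 and 142 CPM (0.46-fold, 0.37 to 0.58), while Cd86 stood at 28.2 and 66.5 CPM (2.36-fold, 1.36 to 4.34).

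Ly6a, the surface protein Sca-1, stood at 529 and 1040 CPM (1.96-fold) in all B-like cells. Genes of naive and positioned B cells had list medians of -0.39 and -0.25, with 0 of 18 higher and 3 lower in the naive list and 0 of 18 higher and 4 lower in the migration list, shares of lower genes near the 19.8% of all genes. Fcer2a, the IgE receptor CD23, stood at 439 and 254 CPM (0.58-fold), Cr2, the complement receptor CD21, at 612 and 424 CPM (0.69-fold), and the chemokine receptor Ccr7 and the egress receptor S1pr1 were both at 0.69-fold. Klf2, a transcription factor of quiescent lymphocytes, stood at 416 and 302 CPM, 0.73-fold. Plasma cell and secretion genes had 1 of 21 higher and 8 lower (all genes 6% and 19.8%), with a median of -0.37.

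The lowest named B-like genes were of other kinds. Klf3, a transcriptional repressor, stood at 130 and 58.4 CPM (0.450-fold, 0.367 to 0.549), and Rasgrp1, a Ras activator, at 92.0 and 41.1 CPM (0.446-fold). Plec, a cytoskeletal linker, stood at 70.3 and 27.5 CPM (0.392-fold), and Pgap1, which remodels lipid anchors of proteins, at 157 and 62.5 CPM (0.398-fold). The other 6 were Gm15675, Gm43305, Arhgef18, Fry, Man2a2 and Pbxip1, from 0.265-fold to 0.457-fold. For 9 of these 10 the saline library was the highest of all 5 libraries, and the live allogeneic library was the lowest for all 10. Its 10 highest genes were higher than in each of the other 4 libraries. The genes were picked by the ratio of these 2 libraries, which favours such orders, so the orders are not independent findings.

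CD4 T-like cells numbered 145 and 48. Of 4372 measured genes, 173 were at least 2-fold higher (3.96%) and 323 lower (7.39%), 11.3% in all. All 10 of the highest named genes but Mitd1, a gene of membrane abscission, belong to the interferon or class I lists. Isg15 stood at 23.9 and 360 CPM, 15-fold (8.04 to 31.1), with a UMI in 5.52% and 45.8% of cells. Iigp1 stood at 19.6 and 200 CPM, 10.2-fold (5.01 to 23.6). Ifi27l2a stood at 618 and 2711 CPM, 4.39-fold (3.82 to 5.05), with 25.6% of its live allogeneic UMIs in 1 cell. Ifi206, of the family of DNA sensors with a pyrin domain, stood at 97.9 and 386 CPM, 3.94-fold, and Gbp2 at 34.8 and 145 CPM, 4.16-fold. The non-classical class I genes H2-T23, a ligand of NKG2A receptors, and H2-T22, a ligand of some gamma-delta T cell receptors, stood at 63.1 and 222.5 CPM (3.53-fold) and at 41.3 and 145 CPM (3.5-fold). Not every type I gene was higher: Usp18, the protease that removes ISG15, was at 0.95-fold.

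In the same cells, T cell activation genes had 5 of 15 higher and 0 lower with a median of 0.10, and naive T cell genes 2 of 21 higher and 3 lower with a median of -0.13. Of all CD4 T-like genes, 11.1% were at least 1.5-fold higher and 20.7% lower. Cd69 stood at 117 and 204 CPM, 1.74-fold (1.17 to 2.58), and S1pr1, the receptor for exit from lymphoid organs, at 294 and 185 CPM, 0.63-fold (0.45 to 0.88). The homing receptor Ccr7 was at 1.07-fold. Inhibitory receptor genes had 0 of 5 higher and 0 lower. The S phase list had a median of 1.23 with 8 of 11 higher and 1 lower, but without the deepest cell, which held 7.70% of the class's live allogeneic UMIs, the median was 0.18 with 4 of 9 higher. The lowest named genes included Oxct1, an enzyme of ketone use, at 109 and 22.3 CPM (0.205-fold, 0.072 to 0.477), Emp3, a membrane protein, at 420 and 163 CPM (0.389-fold, 0.274 to 0.542), Vim, an intermediate filament, at 157 and 55.6 CPM (0.355-fold), and Runx3, a transcription factor of cytotoxic lineages, at 115 and 40.8 CPM (0.354-fold).

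CD8 T-like cells numbered 145 and 67. Of 5272 measured genes, 151 were at least 2-fold higher (2.86%) and 387 lower (7.34%), 10.2% in all. Ifit3 stood at 26.4 and 217 CPM, 8.22-fold (4.75 to 15.3), with a UMI in 6.90% and 50.7% of cells. Ifi27l2a stood at 387 and 1966 CPM, 5.08-fold (4.38 to 5.92), and Isg15 at 58.0 and 280 CPM, 4.83-fold (3.27 to 7.32). Ifit1 stood at 33.4 and 133 CPM (3.99-fold) and Rtp4, an interferon-induced chaperone of receptors, at 24.6 and 92.6 CPM (3.76-fold). Zbp1 stood at 102 and 208 CPM, 2.04-fold. As in B-like cells, Hspa1b was among the highest genes, at 17.6 and 106 CPM (6.04-fold). B2m stood at 981 and 1805 CPM (1.84-fold), but Tap1 was at 0.97-fold, and the 2 lower class I genes were Nlrc5, the transactivator of class I genes, and Tapbpl, a peptide editor.

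Effector genes of CD8 T cells were few in these counts. The cytotoxic list had 2 of 15 higher and 2 lower with a median of -0.07, and the activation list 3 of 17 higher and 1 lower with a median of 0.08. Of all CD8 T-like genes, 8.93% were at least 1.5-fold higher and 20.7% lower. Ifng, the interferon-gamma gene, had 2 UMIs after saline and 8 after live allogeneic cells, the latter in 6 of 67 cells (8.96%). The cytotoxic protease Gzmb had 0 and 3 UMIs, and Il2ra, the high-affinity IL-2 receptor chain, 0 and 6. Xcl1, a chemokine for cDC1, stood at 22.9 and 108 CPM (4.75-fold), with 50% of the live allogeneic UMIs in 1 cell. Ly6c2, a memory and interferon-linked surface protein, stood at 552 and 1132 CPM (2.05-fold). The lowest named genes were Aak1, Lasp1, Cpsf6, Ahnak, Pcm1, Arl4a, Ino80d, Sptan1, Xpo6 and Itgb1, from 0.283-fold to 0.393-fold. Ahnak, a large scaffold protein, stood at 234 and 85.9 CPM (0.367-fold) and the integrin chain Itgb1 at 127 and 49.7 CPM, with 26.4% of its saline UMIs in 1 cell and a log2 ratio of -0.57 once cells with B cell gene UMIs were left out.

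MHC class II genes, which mouse T cells are not known to make, were lower in all 3 classes of T and NK-like cells: 5 of 7 in CD4 T-like (median -2.49), 5 of 8 in CD8 T-like (median -2.18) and 4 of 4 in NK-like cells (median -2.33). H2-Ab1 stood at 174 and 7.42 CPM in CD4 T-like and at 107 and 9.04 CPM in CD8 T-like cells. Markers of B cells were lower beside them, with 8 of 9 lower in CD8 T-like cells, where their summed level was 1361 and 447 CPM, and 4 of 5 lower in NK-like cells, at 1224 and 606 CPM. In CD4 T-like cells 1 of 2 measured B markers was lower, at 583 and 397 CPM. The share of CD8 T-like cells with a Cd79a, Cd79b or Ms4a1 UMI was 16.6% and 2.99%, and that of CD4 T-like cells 2.76% and 2.08%. In barcodes with fewer than 100 UMIs, Cd79a stood at 451 and 494 CPM and Ms4a1 at 288 and 294 CPM. These levels do not measure how much free RNA the cells carried. The part of B cell RNA in these differences was not tested.

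A small cluster of cycling T and NK cells, left without a name because its cells mixed lineages, was led by Gzmc, a granzyme, Zbtb32, Crtam and Xcl1. It held 4 saline cells (0.138%, 0.0376% to 0.353%) and 21 live allogeneic cells (1.77%, 1.10% to 2.69%). Of the 21, 11 had UMIs of Cd8, 6 of Cd4, 2 of Foxp3 and 4 of the NK receptor gene Klrb1c. Of the 4 saline cells, 0 had UMIs of Cd8, 1 of Cd4, 0 of Foxp3 and 3 of Klrb1c, so the lineages differed between the libraries. The cluster held 8 live isogeneic (0.217%), 10 apoptotic isogeneic (0.157%) and 2 apoptotic allogeneic cells (0.0944%). These were deep cells, with median UMIs of 10898.5 after saline and 26413 after live allogeneic cells. Scrublet, a doublet finder, marked 0 of them, but it marked too few cells of these libraries to have worked. The cells of this cluster are not part of the CD4 T-like, CD8 T-like or NK-like sums above. When they were joined with those classes and regulatory T-like cells and each cell was thinned, the share of cells with at least 3 UMIs of G2 and mitosis genes was 22.2% after saline and 25.5% after live allogeneic cells.

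NK-like cells numbered 142 and 30, the thinnest lymphocyte comparison. Of 4139 measured genes, 104 were at least 2-fold higher (2.51%) and 408 lower (9.86%), 12.4% in all. Isg15 stood at 46.4 and 56.3 CPM, 1.21-fold (0.48 to 2.84). Igtp, a GTPase raised by interferon-gamma, stood at 46.4 and 25 CPM, 0.54-fold (0.13 to 1.64), and Zbp1 was at 1.06-fold. Of the 6 higher type I genes, Ifi27l2a stood at 23.2 and 125 CPM (5.39-fold, 2.35 to 13.4) and Irf7 at 28.3 and 87.5 CPM (3.09-fold, 1.30 to 7.51). The others were Bst2 (2.22-fold), Irf9 (1.89-fold), Phf11b (1.76-fold) and Ly6c2 (1.57-fold), and the 2 lower ones were Herc6 and Daxx. The upper bound of the Isg15 interval here, 2.84, lay below its lower bound of 4.28 in B-like cells. These intervals treat UMIs as independent and cover counting error only, so the difference between the classes was not tested. The type I list median of NK-like cells was higher in thinned cells, so it depends on depth.

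Among effector genes of NK-like cells, Gzmb stood at 260 and 506 CPM, 1.95-fold (1.43 to 2.63), while the far more abundant Gzma stood at 10824 and 10350 CPM, 0.96-fold, and the pore protein Prf1 was at 0.81-fold. Ifng stood at 77.3 and 75.0 CPM and had a UMI in 20 of 142 cells (14.1%) and 8 of 30 cells (26.7%). Median UMIs per NK-like cell were 2237 and 4468, so these shares were not taken at the same depth. Cd69 was lower, at 77.3 and 18.7 CPM, 0.24-fold (0.05 to 0.78). Klra7, an inhibitory receptor of the Ly49 family for MHC class I, stood at 250 and 662 CPM, 2.65-fold (1.99 to 3.53), and Klrb1b, another inhibitory receptor, at 134 and 25 CPM, 0.187-fold (0.049 to 0.507). Close relatives of the Ly49 genes may share reads. Several of the highest named genes rested on few cells or on depth: 62.5% of the live allogeneic Stmn1 UMIs and 53.8% of the Pcna UMIs came from 1 cell, and Snrpf changed its sign when cells were thinned, to a log2 ratio of -1.01. The S phase list, at 1.04 with 9 of 11 higher, stood at 0.46 with 3 of 10 higher without the deepest cell, which held 9.23% of the UMIs. Lipid and signalling genes such as Scd2, a fatty acid desaturase, at 129 and 25 CPM (0.194-fold), were among the lowest.

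Macrophage-like cells numbered 63 and 37, and of 3381 measured genes 272 were at least 2-fold higher (8.04%) and 332 lower (9.82%), 17.9% in all, the highest share of the 10 classes. The deepest live allogeneic cell held 21.8% of the class's UMIs there, so several list and gene values are also given without the deepest cell of each library. Genes with at least 100 UMIs had a median log2 ratio of 0.11. Macrophage markers had 0 of 18 higher and 3 lower, with summed levels of 25533 and 22107 CPM.

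The interferon response of these cells was uneven. Zbp1 stood at 12.9 and 163 CPM, 12.6-fold (3.87 to 64.7), Isg15 at 34.5 and 187 CPM, 5.41-fold (2.43 to 13.6), and Ifi27l2a at 629 and 1788 CPM, 2.84-fold (2.32 to 3.49). Isg15 was also higher in macrophage-like cells after the isogeneic infusions, at 159 CPM after live and 128 CPM after apoptotic cells. Psmb9 stood at 77.6 and 259 CPM (3.34-fold) and B2m at 1151 and 2498 CPM (2.17-fold). Other genes of the same lists were lower: Cxcl10, a chemokine for CXCR3-bearing T cells, stood at 241 and 120 CPM (0.50-fold), and Rsad2, the antiviral enzyme viperin, was at 0.70-fold. Cxcl9, the sister chemokine, stood at 77.6 and 313 CPM (4.03-fold), from 2 saline and 8 live allogeneic cells, and at 361 CPM after apoptotic isogeneic cells. Without the deepest cells the type I median was 0.62 from 22 of 43 higher and 1 lower, and the interferon-gamma median 0.71. Without cells holding a B cell gene UMI the type I median was 0.21.

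Cell cycle genes were the other group that stood out in macrophage-like cells. All 8 measured G2 and mitosis genes were higher, with a median of 1.97, and all 6 measured S phase genes, with a median of 1.42. Of all macrophage-like genes, 19.5% were at least 1.5-fold higher and 21.7% lower. Without the deepest cells the lists had 8 of 8 higher at 2.25 and 5 of 5 at 2.07. Most genes of both lists were too low to be measured. Some were measured through the live allogeneic library alone: Prc1 had 0 and 23 UMIs and Pclaf 0 and 27. A gene near 0 after saline is measured only when it is higher, so the minimum of UMIs partly set these counts. Stmn1, a tubulin regulator, stood at 43.1 and 439 CPM (10.2-fold), with 50.7% of the live allogeneic UMIs in 1 cell, Hmgb2, a chromatin protein of dividing cells, at 81.9 and 349 CPM (4.26-fold), and Pcna, the clamp of DNA polymerase, at 64.6 and 235 CPM (3.63-fold). Mki67 or Top2a, both markers of cycling cells, had a UMI in 1 of 63 saline cells (1.59%, 0.0402% to 8.53%) and in 7 of 37 live allogeneic cells (18.9%, 7.96% to 35.2%). The share was 11.9% after live B6, 5.06% after apoptotic Balbc and 4.71% after apoptotic B6 cells. The 7 cells had a median of 16 macrophage markers with a UMI, against 10.5 in the other live allogeneic macrophage-like cells, and median UMIs of 3582 against 1730.

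Thinned to 1000 UMIs, 9.52% (3.58% to 19.6%) of saline and 35.1% (20.2% to 52.5%) of live allogeneic macrophage-like cells held at least 3 UMIs of G2 and mitosis genes. Without thinning the shares were 46.0% and 67.6%. The shares of B-like cells, 7.25% and 8.32%, and of CD8 T-like cells, 8.97% and 8.96%, lay close together, and those of the conventional DC classes were 26.3% and 57.4% in cDC1-like and 23% and 41.1% in cDC2-like cells. The libraries filled these unequally: a cycling cluster held 14.2% and 34.4% of the cDC1-like cells, and another 6.36% and 17.7% of the cDC2-like cells. pDC-like cells went the other way, with 5.6% and 0%, where 0 of 39 cells leaves an upper bound of 9.03%. NK-like cells were at 52.8% and 46.7%, while Mki67 had 0 UMIs in the saline and 11 in the live allogeneic NK-like cells. The list holds widely found genes: H2afz had a UMI in 377 of 855 saline B-like cells, and Mki67 in 18. These shares thus do not count dividing cells. As a list in B-like cells, 1 of 25 G2 and mitosis genes was higher and 14 lower (all genes 6% and 19.8%), with a median of -0.39. Mki67 had 333 and 49 UMIs there, from 18 and 15 cells.

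**Figure D4:**
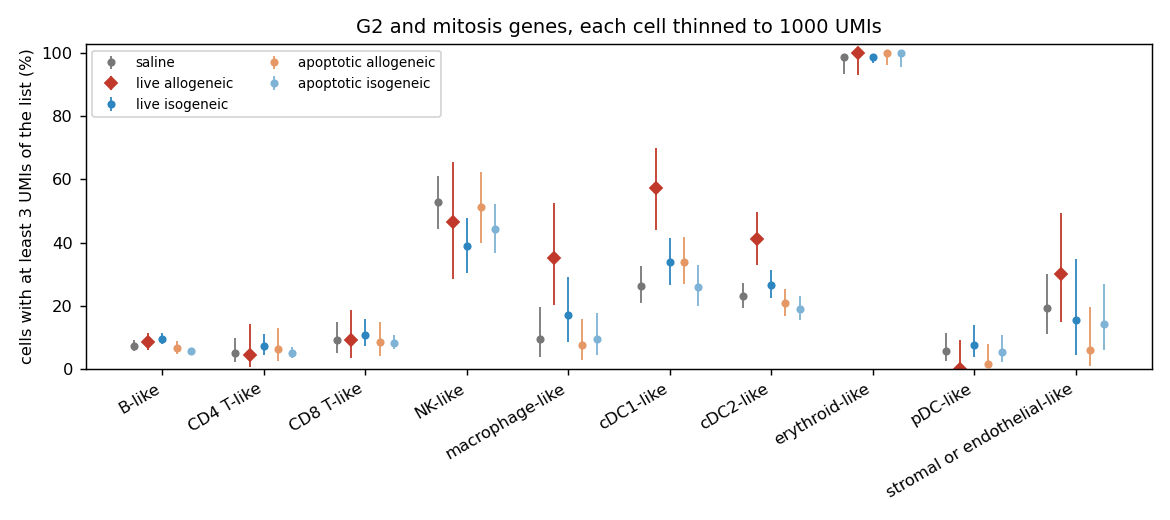
Share of cells (%) with at least 3 UMIs of G2 and mitosis genes after each cell was thinned to 1000 UMIs, by class and library, with exact 95% binomial intervals that cover counting error only. Macrophage-like cells stand at 9.52% after saline and 35.1% after live allogeneic cells (red diamond), while B-like cells stand at 7.25% and 8.32%. The list holds widely found genes such as H2afz, so the shares do not count dividing cells.

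Oxidative phosphorylation genes, nuclear genes of the respiratory chain, had 23 of 35 higher and 0 lower in macrophage-like cells (all genes 19.5% and 21.7%), with a median of 0.71. Without the deepest cells, 13 of 34 were higher at a median of 0.49. The apoptotic infusions had medians of 0.10 (Balbc) and 0.16 (B6), and the live isogeneic infusion one of -0.0014. Genes of the red pulp programme differed less or the other way. Hmox1, which breaks down heme, stood at 4133 and 2708 CPM, 0.66-fold (0.58 to 0.73), Slc40a1, the iron exporter ferroportin, at 3279 and 2516 CPM, 0.77-fold, and Fth1, the iron store ferritin, at 7037 and 12332 CPM, 1.75-fold. As a list, iron handling had 2 of 13 higher and 1 lower with a median of 0.06. The complement gene C1qa stood at 3228 and 3124 CPM (0.97-fold), the adhesion receptor Vcam1 was at 0.83-fold, and Mertk, a receptor for apoptotic cells, stood at 806 and 403 CPM (0.50-fold, 0.37 to 0.66). Complement and phagocytic genes had 3 of 20 higher and 2 lower, beside 19.5% and 21.7% of all macrophage-like genes. NF-kB targets had 2 of 13 higher and 7 lower (all genes 19.5% and 21.7%), with a median of -0.52. Il1b, an inflammatory cytokine, had 21 and 0 UMIs, at least 5.01-fold lower.

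The highest and lowest named macrophage-like genes need the makeup of the class beside them. Fabp5, a fatty acid carrier, stood at 194 and 2329 CPM, Lyz2, lysozyme, at 2012 and 6548 CPM, and Cd63, a tetraspanin, was also among the highest, but 1 cell gave 79.1%, 86.4% and 97.9% of their live allogeneic UMIs. Without the deepest cells the log2 ratio was 1.57 for Fabp5, -0.92 for Lyz2 and -2.40 for Cd63. Tomm7, a mitochondrial import protein, stood at 56.0 and 247 CPM (4.41-fold), and the complex I genes Ndufa3 and Ndufab1 were at 3.78-fold and 3.75-fold. The lowest genes were led by B cell genes: Ms4a1 had 58 and 0 UMIs, Cd79a stood at 323 and 6.02 CPM and Cd79b at 284 and 30.1 CPM. All 11 measured B markers were lower, with a summed level of 4012 and 469.5 CPM, and so were all 5 measured erythroid markers, at 25003 and 584 CPM. A B cell gene UMI was found in 28.6% (17.9% to 41.3%) of saline and 10.8% (3.03% to 25.4%) of live allogeneic macrophage-like cells. The part of B cell and erythroid RNA in the values of this class was not tested. Beside them, Marco, a scavenger receptor of marginal zone macrophages, stood at 224 and 48.2 CPM (0.215-fold) and at 42.4 CPM after live isogeneic cells, Lpl, lipoprotein lipase, at 401 and 120 CPM (0.300-fold, 0.175 to 0.491), and the nuclear RNA Neat1 at 590 and 120 CPM (0.204-fold, 0.121 to 0.327).

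The macrophage-like class joined 2 clusters, which the libraries filled unequally. The cluster led by Pla2g2d, Cfb and Marco held 33 and 25 cells, and the cluster led by Ccr3, Mertk, Cd5l and Vcam1, genes of red pulp macrophages among them, held 30 and 12. In the Mertk cluster the type I median was 0.57 beside -0.04 for all genes. In the Pla2g2d cluster it was 0.28, the same as the median of all genes, 0.28. The interferon-gamma medians were 0.53 and 1.09, and the oxidative phosphorylation medians 0.25 and 0.90, in the Mertk and the Pla2g2d cluster. In the Pla2g2d cluster the type I list was thus level with the rest of the genome, which the sum over the class does not show.

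Outside the lymphocytes and macrophages the interferon lists were higher in every compared class, by unequal amounts. In cDC2-like cells 51 of 63 type I genes were higher and 0 lower (all genes 13.4% and 15.3%), with a median of 0.84. The libraries filled its clusters unequally, the Mmp12, Cyp4f16 and Ffar2 cluster holding 70.2% of the saline and 43.3% of the live allogeneic cells. cDC1-like cells had 15 of 46 higher and 3 lower (all genes 11.8% and 10.7%) and a median of 0.32. Plasmacytoid DC (pDC)-like cells, whose saline level of type I UMIs was the highest of the classes at 16.3 per 1000, had 23 of 45 higher and 0 lower (all genes 10.2% and 18.3%) and a median of 0.53. Erythroid-like cells had 22 of 42 higher and 1 lower (all genes 6.46% and 10%) with a median of 0.38, and 12 of 13 interferon-gamma genes higher with a median of 1.37. Stromal or endothelial-like cells had 17 of 33 higher and 1 lower (all genes 12.6% and 20.2%) and a median of 0.48. Erythroid-like cells held 1.71 and 2.69 type I UMIs per 1000. Free RNA, at 5037 and 7817 CPM of the list, was present beside them, and its part in their values was not tested.

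Erythroid-like cells also had 15 of 22 class I presentation genes higher and 0 lower, with a median of 0.73. At 2-fold, 1.88% of all measured erythroid-like genes were higher and 3.36% lower, 5.24% in all, the lowest share of the 10 classes. Igtp (chr11:58199556-58207591) stood at 4.60 and 41.5 CPM, 9.01-fold (4.90 to 18.1), and had UMIs in 10 of 84 and 32 of 52 cells. H2-Q7, a non-classical class I heavy chain, stood at 44.5 and 178 CPM (4.0-fold), and Tgtp2 at 6.13 and 42.9 CPM (7.0-fold). Cxcl10 had 0 and 46 UMIs, at least 19.7-fold higher.

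In cDC2-like cells 5.78% of genes were at least 2-fold higher and 4.54% lower, 10.3% in all, and the chemokines led. Cxcl9 stood at 17.9 and 368 CPM (20.6-fold, 15.2 to 28.5) and Cxcl10 at 14.3 and 143 CPM (10.0-fold), with UMIs in 17 and 15 of 141 live allogeneic cells, so few cells carried these levels. In cDC1-like cells 2.95% were higher and 3.93% lower, 6.88% in all. Apol7c, a gene of an apolipoprotein L family member, stood at 952 and 299 CPM (0.314-fold) there. A cluster of 53 and 28 cells led by Bcl2l14 and Apol7c, with 12 of 15 cDC1 markers, was left unnamed and is not in that sum; joined to it, Apol7c stood at 974 and 316 CPM (0.324-fold). In the cDC1-like sum, Hspa1a stood at 13 and 99.8 CPM (7.66-fold), and Cdc6, a replication factor, was among the highest genes but had a log2 ratio of -0.52 after thinning. Among pDC-like cells 2.93% were higher and 7% lower, 9.93% in all. Iigp1 stood at 41.2 and 246 CPM (5.96-fold) and Slfn5 at 92.1 and 345 CPM (3.74-fold), while the chemokine receptor Ccr2 stood at 159 and 26.7 CPM (0.168-fold) and the lectin Cd209d at 582 and 128 CPM (0.221-fold). Stromal or endothelial-like cells had 4% higher and 8.07% lower, 12.1% in all. Fabp4, a fatty acid carrier of capillary endothelium, stood at 36.5 and 659 CPM there, from 5 and 6 cells, and 97.7% of the saline C3 UMIs came from 2 cells, so single cells carried these extremes.

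Across the 10 classes, 1565 of 11363 measured genes were at least 2-fold higher in at least 1 class, 29 in at least 6 and 7 in at least 8. Of the 29, 15 belong to the interferon lists. Ifi27l2a was at least 2-fold higher in all 10 classes, Isg15, Igtp and Zbp1 in 8, and Bst2, Iigp1, Xaf1, Rtp4 and H2-T22 in 7. Their median log2 ratios over the classes were far above those of the other infusions: 1.61 for Isg15, beside -0.01, -0.53 and -0.26 after live B6, apoptotic Balbc and apoptotic B6 cells. For Zbp1 it was 1.51, beside 0.08, 0.01 and -0.01, and for Igtp 1.34, beside 0.12, -0.11 and 0.02.

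A further set of widely higher genes did not share this pattern. Tomm7 was at least 2-fold higher in 8 classes after live allogeneic cells, but its median was 1.10 there and 1.09, 0.99 and 0.75 after the other infusions, and saline was the lowest of the 5 libraries in 10 of 10 classes. Ndufa1, a complex I subunit, had medians of 1.29, 1.26, 0.78 and 0.67, with saline the lowest in 9 of 10. Pfn1, the actin-binding profilin, had 1.04, 1.25, 0.13 and 0.35. These housekeeping genes thus set the saline library apart from all 4 infusions, where the interferon genes set the live allogeneic library apart from the other 4 libraries. Both sets were picked for a live allogeneic level above saline, which favours a low saline or a high live allogeneic level. Hspa1b was between these patterns, with 1.81, 0.71, 1.40 and 0.19. Genes at least 2-fold lower were less widely shared, with 0 in at least 6 classes and 7 in at least 5: S100a4, Cd79a, Fam168a, Zfp329, Apoe, Plec and Ly6d. Cd79a and Ly6d are among the B cell markers used here and were lower in classes other than B-like cells. Ly6d had 93 and 0 UMIs in cDC1-like and 60 and 0 in macrophage-like cells, and Cd79a 38 and 0 in CD8 T-like cells. The part of B cell RNA in these values was not tested.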

How the data were processed

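Each of the 5 groups is 1 library made with the 10x Genomics single cell 3' kit, per the labels' protocols. The deposited files hold raw counts of UMIs, whole numbers without normalization; Cell Ranger 4.0 and mm10 are named in the submitters' processing notes. Barcodes of 1000 or more UMIs numbered 3055 after saline and 1292 after live allogeneic cells, and the minimum of 500 genes and the limit of 10% mitochondrial UMIs left 2902 and 1186, with 15435986 and 10588058 UMIs. Scrublet marked 8 and 1 of these cells (0.276% and 0.084%), too few to have worked, and no cell was removed as a doublet from the values above.

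Cells of all libraries were clustered with scanpy 1.11.5 and leidenalg 0.10.2 (2000 variable genes, 30 principal components, 15 neighbours, resolution 1). Interferon, stress, immunoglobulin, T cell receptor, mitochondrial, hemoglobin, ribosomal protein and sex-linked genes were left out of the clustering. A cluster took its name from 18 marker sets where at least 3 markers and 25% of a set were raised by a log2 of at least 1; a cluster whose 10 leading genes held more markers of another class than of its own stayed unnamed. The names are rebuilt here and are not the authors' annotation. UMIs were summed per class and library. Intervals are exact conditional Poisson intervals for folds and Clopper-Pearson intervals for shares (scipy 1.17.1), at 95%. They cover counting error only. On simulated counts, 96.0% of the intervals held the true fold over 5255 B-like genes and 96.4% over 525 macrophage-like genes.

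List members were counted at 1.5-fold (28 lists) and all genes at 2-fold. Named genes were the 10 highest and 10 lowest log2 ratios in each lymphocyte and macrophage class and 3 each elsewhere, with 50 or more UMIs, a UMI in 10% of a library's cells and a level of 0.1 or more of that in the gene's highest class, leaving out the gene kinds above other than interferon and stress genes. Other genes with values are list members or markers, chosen after their values were seen. The comparison, lists and markers were chosen with earlier results of these data known. Gene positions (GRCm38) matched 182 of 182 named genes. Alternatives were the pseudocount, gene minimum, mitochondrial limit, clustering, scaling, thinning, removal of the cells marked by Scrublet, and clusters weighted to the same share. Others were added after the data were seen: leaving out cells with B cell gene UMIs or the deepest cells, single B-like clusters, and joining the unnamed B cell and cDC1 clusters.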

Additional observations from a re-analysis of the deposited data

Results flagged for a closer look

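Several interferon-linked genes were also higher outside the cells. In barcodes with fewer than 100 UMIs, which hold free RNA rather than cells and enter no comparison above, Isg15 stood at 42.9 CPM in the saline and 251.9 CPM in the live allogeneic library, 5.87-fold (4.55 to 7.68). Ifi27l2a stood at 379 and 1111 CPM (2.93-fold), Ifit3 at 14.9 and 52.5 CPM (3.53-fold), Irf7 at 42.3 and 114 CPM (2.71-fold) and Bst2 at 170 and 256 CPM (1.51-fold). The chemokine Cxcl9 stood at 64.3 and 184 CPM (2.86-fold), Ly6a at 195 and 401 CPM (2.05-fold) and Ly6c2 at 176 and 217 CPM (1.24-fold). These 8 were picked out because their level lay above that of the control library in barcodes that the comparisons leave out. Genes of other kinds were higher there too, with S100a8 at 100.1 and 191 CPM (1.91-fold), Hbb-bs at 1080 and 1635 CPM (1.51-fold) and Gm42418 at 1.28-fold. In NK-like cells, of which the live allogeneic library held 30, Isg15 stood at 46.4 and 56.3 CPM. The part of free RNA in the values of each class was not tested.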

How the results depend on the processing

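The type I list median kept its direction in every class under every alternative run, apart from NK-like cells, where it was -0.053 with a minimum of 50 UMIs per gene and 0.56 in thinned cells; the cause was not tested. In B-like cells it was 1.30 with a pseudocount of 1 CPM, 1.14 without immunoglobulin, hemoglobin, mitochondrial and ribosomal protein genes, and 1.60 and 0.77 in the Fcer2a and Fcmr cluster and the S1pr3 cluster alone. It was 0.60 in CD4 T-like cells with interferon genes kept in the clustering, and 1.22 (thinned) and 1.01 (resolution 2) in CD8 T-like cells. A minimum of 50 UMIs, which tests fewer genes, lowered the count of genes at least 2-fold different from 683 to 335 in B-like, 496 to 102 in CD4 T-like, 538 to 123 in CD8 T-like, 512 to 81 in NK-like and 604 to 137 in macrophage-like cells, and thinning gave 198, 164, 252 and 161 in the last 4. The live allogeneic share was 28.6% for B-like and 3.65% for NK-like cells at 5% mitochondrial UMIs, 3.88% for CD8 T-like cells at resolution 2, and 43.8% for B-like cells with the unnamed B cell cluster joined. Cells with at least 3 type I UMIs made up 99.8% of B-like cells without thinning and 99.4% at 2000 UMIs, and 100% of NK-like cells in both. Thinning reversed Snrpf in NK-like (-1.01), Cd63 in macrophage-like (-1.51) and Cdc6 in cDC1-like cells (-0.52), and leaving out the deepest cells reversed Cd63 (-2.40) and Lyz2 (-0.92) in macrophage-like cells. Over all alternatives, 560 values of named genes stayed within counting error, 91 moved and 5 reversed. An alternative without H2-Ea was not run. No paired analysis was possible because each group has 1 library. Depth limits what can be said of the 30 NK-like and 37 macrophage-like live allogeneic cells.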

Other observations

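Gbp2b, a guanylate-binding protein gene whose level differs between mouse strains as well as with interferon, had 4 UMIs in 4 saline cells (0.138%) and 51 UMIs in 17 live allogeneic cells (1.43%, 0.837% to 2.29%). Of the 51, 30 were in 1 cell of no named class. After live isogeneic cells it had 13 UMIs in 8 cells, after apoptotic allogeneic cells 3 in 3 and after apoptotic isogeneic cells 5 in 4. Whether these cells came from the infusion was not tested.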
